A study of Homo sapiens with 8 samples.

Results

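Zalypsis is a DNA-binding compound of marine origin, and its effect on transcripts was measured here in cells labelled as OPM1, an established human myeloma cell line. The comparison holds the 4 OPM1 arrays of the 8 in the series, chosen by their titles: 2 controls and 2 arrays after Zalypsis at 5 nM. The other 4 arrays are the same design in the myeloma line MM1S. They enter the shared estimate of the spread and the test of a difference between the lines. Means over all 8 arrays also set which probe set stands for each gene and which genes were bright enough to test. Treated cells were collected when Annexin V staining put 15 to 20% of them in cell death. The labels name neither the exposure time nor any solvent for the controls. Each array took 100 ng of total RNA, and each group is a single cell line with 2 arrays. The labels do not say whether separate cultures were used, and the p-values therefore measure only how far these arrays vary, a spread that may be technical.

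Zalypsis belongs to the tetrahydroisoquinoline alkaloids related to trabectedin, which bind in the minor groove of DNA and can block transcribing RNA polymerases and cause strand breaks. Myeloma is a cancer of plasma cells, the antibody-secreting end stage of the B lineage. During that differentiation the B-cell factor PAX5 is normally switched off and surface syndecan, encoded by SDC1, is switched on.

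The arrays labelled OPM1 carried plasma cell and B-cell markers side by side. Of 9 plasma cell markers 6 exceeded a signal of 100 on both controls, among them XBP1 at 1721 and 1748 and the antibody joining chain JCHAIN at 1867 and 2194. SDC1, however, read 6.56 and 12.9 on the controls and 13.96 and 9.81 after treatment, against 2370 to 3443 on the MM1S arrays. All 8 B-cell markers on the array exceeded 100 on both controls, and 4 of 6 markers of precursor or germinal centre B cells did so. FGFR3, a receptor gene switched on by a recurrent myeloma translocation, read 20.9 to 26.9 on the controls. Its neighbour in that rearrangement, the methyltransferase gene NSD2, read 638 and 791, against 1635 and 1645 on the MM1S controls. Because of the B-cell markers and the low SDC1 the cells are called OPM1-labelled. Markers of T and NK cells summed to 73.5 to 133.4 over 5 genes, epithelial markers to 52.3 to 83.1 over 4, and all 9 of them stayed below 100 on all 4 arrays. The endothelial gene PECAM1 read 124.7 and 111.7 on the controls and 113.1 and 70.4 after treatment, with overlapping groups. The collagen gene COL1A1, a stromal marker, read 52.7 and 93.5 and then 103.5 and 117.3, a rise of 0.46 (adjusted p = 0.010) that turned to a lower value with poly-A scaling (-1.06). The monocyte gene CD14 was the exception among 4 myeloid markers, with 5.82 and 4.89 on the controls and 122.8 and 74.4 on the treated arrays. It was too dim over all arrays to be tested. The plasma cell markers summed to 5364 and 6004 on the controls and to 4539 and 4082 on the treated arrays. The B-cell markers summed to 10456 and 11656 and then to 5936 and 4928. On the MM1S controls the plasma cell markers summed to 37374 and 35156 and the B-cell markers to 406 and 334. In such bulk RNA, fewer cells of a type and less RNA per cell cannot be told apart.

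Several control signals moved with treatment. The 4 poly-A controls, bacterial transcripts added before labelling, had a geometric mean of 299.7 and 448 on the control arrays and 1862 and 1349 on the treated ones, a 4.33-fold difference. How much was added is not stated in the labels. A 28S ribosomal RNA probe set went from 1071 and 1327 to 11465 and 9325. The 3' to 5' ratio of GAPDH was 2.26 on control 1 and 0.963 to 1.06 on the other 3 arrays. The part of these shifts in the results was not tested. Because of them each direction was read on 3 scales: the signals as deposited, after quantile normalization, and divided by the poly-A controls within the line. The median log2 change of all genes was -0.07, 0.10 and -1.68 on these scales, so a gene could be higher on the first scale and lower on the third.

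On the deposited scale the response was broad and deep, and falls reached further than rises. Of 11865 genes tested 63.9% were called at an adjusted p under 0.05, 3012 higher (25.4%) and 4567 lower (38.5%). The median gap between the 2 arrays of a group was 0.15 on the log2 scale for controls and 0.12 for treated arrays, and the median size of a change was 0.53. Among called genes, 901 rose over 2-fold (7.59% of those tested) and 2627 fell over 2-fold (22.1%). In 80% of genes the arrays of the groups did not overlap. These folds are on the log2(intensity + 32) scale, which understates those of dim genes. Over 4-fold on it there were 115 and 957, and over 16-fold 1, which was JUN, and 33. Lower genes made up 60.3% of the calls as deposited, 45.8% after quantile normalization and 99.4% on the poly-A scale. Calls after quantile normalization took in 71.5% of genes (38.8% rising, 32.7% falling), and those on the poly-A scale 92.9% (0.573% rising, 92.3% falling). The counts of gene lists given below on each scale stand against these shares. Altogether 3872 genes (32.6%) were called lower on all 3 scales, and 68 (0.573%) higher on all 3. Signals over 8000 on average were held by 89 genes, of which 26 were higher and 18 lower, with a median change of 0.03.

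**Figure D1:**
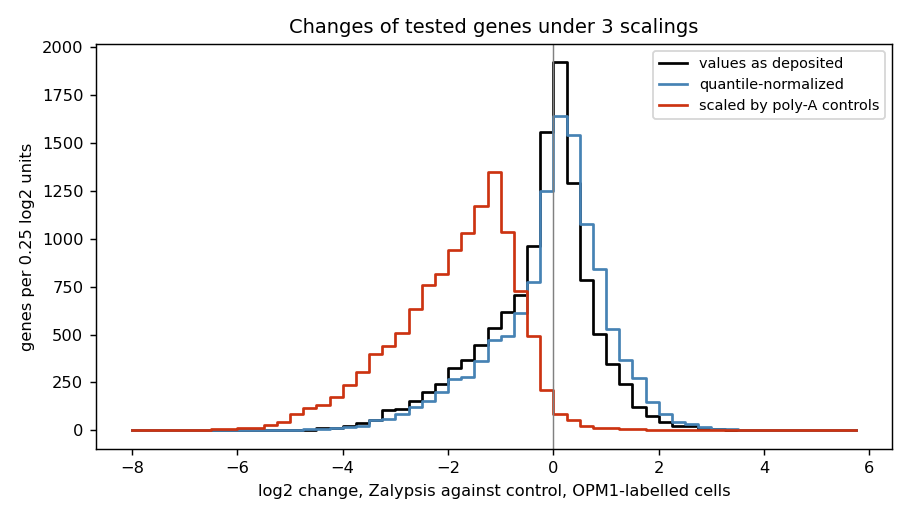
Number of genes (vertical axis) by log2 change between Zalypsis and control (horizontal axis, bins of 0.25) for 11865 genes in OPM1-labelled cells. The black line shows values as deposited (median -0.07), the blue line quantile-normalized values (0.10) and the red line values scaled by the poly-A controls (-1.68), and a tail toward lower values is present in each.

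The largest rises were those of the stress-inducible transcription factors JUN and ATF3, which pair with each other and with related factors on DNA. JUN, the central AP-1 subunit, read 56.7 and 61.8 on the controls and 1539 and 1431 on the treated arrays. Its log2 change was 4.05 ± 0.16 (adjusted p = 3.4e-15), and 2.26 on the poly-A scale. ATF3 read 56.7 and 41.2 and then 1098 and 1097, a log2 change of 3.81 ± 0.16 (adjusted p = 1.1e-14). Both genes were dim in the controls, and the groups lay far apart. The partner ATF2 fell from 721 and 439.6 to 73.0 and 64.9 (-2.56). Of the 12 tested AP-1 and ATF genes, 4 rose and 3 fell, with a median of -0.02.

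Immediate early genes, which respond to signals within minutes without new protein synthesis, rose in 13 of 20 cases and fell in 4 on the deposited scale, but with poly-A scaling 1 was higher and 12 lower. The falls numbered 1 without control 1, 2 without control 2 and 1 without treated array 1. The list's median was 0.81, against -0.07 for all genes. The kinase gene SGK1 was at 36.9 and 32.1 on the controls and 278 and 281 on the treated arrays, and it kept its rise on every scale (log2 2.23, 2.61 and 0.68). KLF6, a zinc finger factor, went from 170.3 and 155 to 873 and 688 (log2 2.05), and GADD45B, a stress sensor that binds MAP kinase kinases, from 147 and 172 to 785 and 732 (2.05). Both of these were not called on the poly-A scale (0.13 and 0.13). EGR1, a growth-factor response gene, was lower instead, from 225 and 154 to 78.9 and 78.9 (-0.98).

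ID2 and ID3 moved in opposite directions. Both encode small proteins that capture E proteins, the helix-loop-helix factors that drive B-cell development, and keep them off DNA. ID2 read 171 and 209 on the controls and 1913 and 1857 on the treated arrays (log2 3.12 ± 0.15). ID3 read 2067 and 2731 on the controls and only 62.8 and 50.2 after treatment (-4.77 ± 0.15). The arrays of each group kept close together, and both changes held on all 3 scales (1.14 and -6.40 with poly-A scaling). The E-protein genes TCF12 and TCF4 fell as well, from 1387 and 1138 to 91.9 and 129 (-3.19) and from 3079 and 2559 to 313 and 303 (-3.06). Of the 5 tested genes of this group ID2 was the only one higher on any of the 3 scales.

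The sequences just before the start are given for the 2 largest rises, for the ID pair that moved apart and for the histone gene with the largest rise. They are the 150 bases upstream of the start in RefSeq's table for GRCh38.p14, on the gene's strand and written 5′ to 3′, with searched motifs in capitals: TGACATCA (reverse TGATGTCA), the 8-base site known from the JUN promoter, CCAAT (reverse ATTGG) and TATAAA (reverse TTTATA). The regions are chr1:58784048-58784197 on the minus strand for JUN, chr1:212565257-212565406 on the plus strand for ATF3, chr2:8681906-8682055 on the plus strand for ID2, chr1:23559502-23559651 on the minus strand for ID3 and chr1:149886683-149886832 on the minus strand for the histone gene H2BC21.
JUN: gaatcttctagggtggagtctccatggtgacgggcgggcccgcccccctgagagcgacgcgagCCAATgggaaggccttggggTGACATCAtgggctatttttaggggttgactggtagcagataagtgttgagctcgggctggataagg
ATF3: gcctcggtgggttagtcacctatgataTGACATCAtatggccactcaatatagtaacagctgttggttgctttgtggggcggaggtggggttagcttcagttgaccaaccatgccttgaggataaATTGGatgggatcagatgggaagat
ID2: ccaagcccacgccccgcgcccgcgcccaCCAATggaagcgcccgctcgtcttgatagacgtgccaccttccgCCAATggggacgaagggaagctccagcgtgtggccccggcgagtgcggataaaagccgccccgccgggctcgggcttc
ID3: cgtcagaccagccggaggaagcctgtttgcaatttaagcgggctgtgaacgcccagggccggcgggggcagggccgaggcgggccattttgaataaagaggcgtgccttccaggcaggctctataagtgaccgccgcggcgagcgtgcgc
H2BC21: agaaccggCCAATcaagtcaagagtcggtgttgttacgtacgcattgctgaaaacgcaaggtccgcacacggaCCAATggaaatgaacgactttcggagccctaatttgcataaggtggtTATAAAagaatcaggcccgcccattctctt

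JUN and ATF3, the 2 largest rises, shared the letters TGACATCA, which begin 67 and 123 bases before the starts used here. Each gene was given 1 start, and ATF3 spans 55.4 kb. Other starts of a gene were not searched, and which start gave the measured transcripts was not examined. In a window from 250 bases before to 50 bases after the start, 1.39% of 9626 tested genes with a listed promoter held TGACATCA. It was in 1.47% of 747 genes called higher over 2-fold and in 1.47% of 2245 called lower over 2-fold. CCAAT, which begins 122 and 78 bases before the start of ID2 and is not in the stretch printed for ID3, was in 37.3% of all these promoters. Its share was 46.1% in the genes higher over 2-fold and 34.8% in those lower over 2-fold. TATAAA was in 5.84%, 7.497% and 4.59% of the same sets, and TGACGTCA, the cyclic AMP response element, in 3.27%, 4.55% and 3.03%. The 7-base AP-1 site TGAGTCA (reverse TGACTCA) was in 2.92%, 2.54% and 2.18%, so its share in the higher set was below that in all promoters. The MYC-type E-box CACGTG was in 10.3%, 8.57% and 11.4%. In the 50 promoters of genes called higher on all 3 scales, TGACATCA was in 6% (3 genes). JUN and ATF3 are 2 of these 3. CCAAT was in 64%, TATAAA in 18%, TGACGTCA in 4% and TGAGTCA in 2% (1 gene). The histone gene H2BC21, printed above with CCAAT and TATAAA, is in this set. The part of histone genes in these shares was not counted. The median GC content was 65.0% over all promoters, 63.7% in the higher set and 66.3% in the lower one.

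B-lineage factors had the lowest median change of the 61 gene lists as deposited, just below the ID and E proteins (-3.06), which were lower with poly-A scaling (-4.95 against -4.67). Of 17 tested B-lineage factors 16 fell on the deposited scale, and the same count fell after quantile normalization and 17 with poly-A scaling. Their median log2 change was -3.10, against -0.07 for all genes. PAX5, which holds B cells to their lineage, read 2883 and 3556 on the controls and 64.8 and 37.0 on the treated arrays, the deepest fall of all genes tested on the log2(intensity + 32) scale (-5.31 ± 0.15, adjusted p = 1.9e-16). BACH2, a repressor that keeps B cells from becoming plasma cells, went from 964 and 884 to 9.23 and 6.32 (-4.59), below the offset of 32. MYB, a factor of blood progenitors, fell from 3359 and 3282 to 134 and 104 (-4.48). The single factor that rose was SPIB, an ETS factor of B cells, from 250.1 and 243 to 496 and 502 (0.93), but the mean of its probe sets fell by 0.98 and so did its value on the poly-A scale, by 1.00. The 17 genes span a median of 111 kb, against 28.3 kb for all tested genes.

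Genes of B-cell receptor signalling fell in 19 of 23 cases and rose in 1, with a median of -2.40. With poly-A scaling 0 were higher and 23 lower, where 92.3% of all genes were lower. CD24, a surface protein of B cells, fell from 3689 and 3840.4 to 254 and 304 (-3.61). Its gene spans 7.03 kb, against a median of 82.4 kb for the list. PLCG2, the phospholipase behind the receptor, fell from 1154 and 1115 to 87.3 and 48.9 (-3.57), and the adaptor BLNK from 387 and 461 to 14.3 and 20.9 (-3.20). The receptor chain gene CD79A lay at 3123 and 3435 on the controls and 4217 and 3243 after treatment, where the groups overlap and no call was made (0.17, adjusted p = 0.35). Its partner CD79B fell from 2255 and 2501 to 889 and 891 (-1.38). The regulator RGS13, typical of germinal centre B cells, fell from 1523 and 1248 to 45.8 and 36.9 (-4.27).

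Of 21 tested plasma cell genes 4 rose and 9 fell (19.0% and 42.9%, near the 25.4% and 38.5% of all genes), with a median of -0.04, and with poly-A scaling 0 were higher and 17 lower. XBP1, which drives the secretory program, fell from 1721 and 1748 to 367 and 330.4 (-2.22) and the surface enzyme CD38 from 400.1 and 578 to 71.5 and 64.5 (-2.36). IRF4, on which myeloma cells depend, lay at 285 and 350.9 on the controls and 295 and 367 on the treated arrays. Those groups overlap (log2 0.05 ± 0.17, adjusted p = 0.81), and after quantile normalization IRF4 was called higher (0.40). SSR4, a subunit of the signal sequence receptor in the endoplasmic reticulum, rose from 849 and 1686 to 4684 and 4381 (1.89), with the lower control value on the array of high GAPDH ratio. Without that array its change was 1.41.

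**Figure D2:**
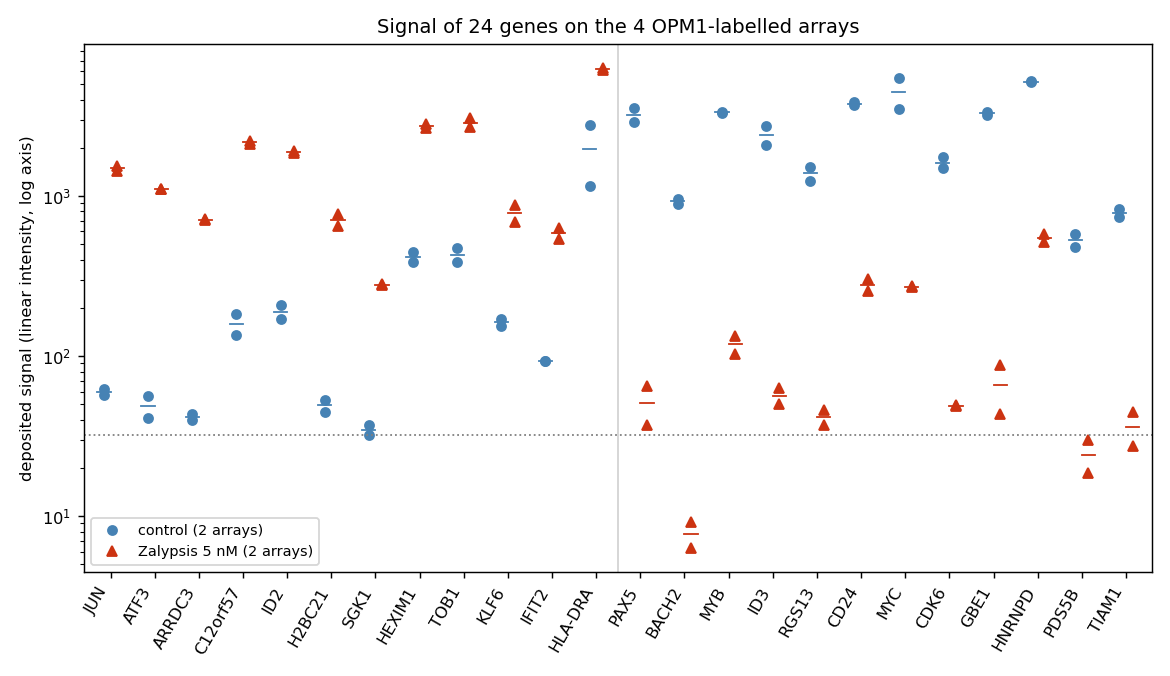
Deposited signal (vertical log axis) of 24 named genes on the 2 control arrays (blue circles) and the 2 arrays treated with 5 nM Zalypsis (red triangles), short lines marking group means and the dotted line the offset of 32 added before taking log2. The first 12 genes rose and the last 12 fell on the deposited scale, and in each of them the groups are apart; of the rises, those of HEXIM1, TOB1, KLF6 and HLA-DRA were not called higher on the poly-A scale.

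The replication-dependent histone genes are short, lack introns and normally end in a stem-loop and not in a poly-A tail. Of 19 tested, 15 rose and 0 fell as deposited, 16 and 0 after quantile normalization, and 8 and 5 with poly-A scaling. Leaving out any 1 array kept 15 higher, with 1 lower without control 1. H2BC21 read 53.5 and 45.0 on the controls and 770.5 and 646 on the treated arrays (3.18 ± 0.13). H2BC6 went from 64.5 and 102 to 907 and 983 (3.10) and H2BC5 from 61.4 and 88.6 to 847 and 866 (3.07). Probe sets of the H2B genes can share near-identical sequence, so these 3 may not be independent readings. Of 8 replication-independent variants 6 rose and 2 fell as deposited, and 1 was higher and 5 lower with poly-A scaling. H2AX, whose protein is phosphorylated at strand breaks, rose from 1122 and 1113 to 5481 and 5292 (2.24, and 0.15 with poly-A scaling). CENPA, the histone of the centromere, rose from 85.9 and 111 to 734 and 719 (2.55, and 0.70), while MACROH2A1 fell from 3181 and 3585 to 1265 and 1005 (-1.56). The 19 histone genes span a median of 0.511 kb.

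The transcription machinery itself divided by subunit. HEXIM1, which holds the elongation kinase P-TEFb inactive, read 446 and 389 on the controls and 2809 and 2653 on the treated arrays (2.62 ± 0.15), but only 0.58 on the poly-A scale (adjusted p = 0.083). BRD2, a bromodomain reader of acetylated histones, rose from 1344 and 1233 to 4256 and 4069 (1.67). AFF1, the scaffold of the super elongation complex, fell from 1286 and 1068 to 98.6 and 85.7 (-3.28). Of 24 genes of this group 11 rose and 6 fell as deposited. With poly-A scaling 0 and 21 did so, as did 0.573% and 92.3% of all genes. Among polymerase II subunits and general transcription factors 17 of 37 rose and 15 fell as deposited, and 0 and 34 did so with poly-A scaling. The largest subunit, POLR2A, rose from 1238 and 1148 to 3630.2 and 3868 (1.63) and the small subunit POLR2L from 1123 and 1519 to 4230.3 and 4467 (1.71), both of them below 0 with poly-A scaling. Among 27 Mediator subunits 12 rose and 10 fell as deposited, 7 rose without treated array 2, and 0 were higher with poly-A scaling, with MED19 at 2.01 and the kinase CDK8 at -2.76, from 999 and 896 to 94.4 and 134.

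TOB1 and TOB2, antiproliferative adaptors that bring deadenylases to messages, went from 470.2 and 385 to 3046 and 2679.9 (2.66) and from 402 and 399.6 to 1460.3 and 1417 (1.76), neither called higher with poly-A scaling (0.61 and -0.26). CNOT1, the scaffold of the deadenylase complex, fell from 1557 and 2234 to 191 and 243 (-2.94). Of the 17 genes in this group 6 rose and 9 fell. The alpha-arrestins, adaptors that send membrane proteins for degradation, rose in 4 of 5 tested genes as deposited, but with poly-A scaling 1 was higher and 3 lower. ARRDC3 was the largest, from 43.4 and 39.6 to 719 and 705 (3.34, and 1.65 with poly-A scaling), and TXNIP, which restrains glucose uptake, went from 471 and 657 to 1577 and 1414 (1.37).

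MYC fell from 3479 and 5475 to 273 and 268 (-3.86), with both treated arrays far below both controls. Of 10 tested genes of the MYC and MXD network 6 fell and 2 rose, and 0 rose without control 2 or without treated array 1. The cyclin-dependent kinase CDK6, which drives entry into S phase, fell from 1491 and 1739 to 48.4 and 49.3 (-4.34 ± 0.15), and its substrate's gene RB1 from 1561 and 1206 to 63.7 and 57.5 (-3.92). CDKN1B, an inhibitor of cyclin-dependent kinases, rose from 71.4 and 64.7 to 308 and 277 (1.70), a change of -0.01 with poly-A scaling. SERTAD1, a CDK4 regulator, rose from 56.3 and 69.0 to 489 and 510.2 (2.49) and stayed called with poly-A scaling (0.75). Of 33 tested targets of p53, the factor that responds to DNA damage, 7 rose and 10 fell as deposited. These are 21.2% and 30.3%, against 25.4% and 38.5% of all genes. The counts were 13 and 6 after quantile normalization. With poly-A scaling they were 0 and 29, where 0.573% of all genes were higher and 92.3% lower. As deposited, 6 fell without treated array 1. CDKN1A fell from 1087 and 1139 to 297 and 307 (-1.78) and MDM2 from 1642 and 1254 to 178 and 191 (-2.76).

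Mitotic genes also divided. Of 41 tested 12 rose and 18 fell as deposited, near the shares of all genes, with a median of -0.18. UBE2C, the ubiquitin-conjugating enzyme of the anaphase-promoting complex, rose from 738 and 785 to 3345 and 3089 (2.03) and securin, PTTG1, from 1051 and 1104 to 2915 and 3208 (1.48), both below 0 with poly-A scaling. The spindle checkpoint kinase BUB1B fell from 1408 and 1250.3 to 118 and 135 (-3.10) and the motor KIF11 from 383 and 327 to 38.2 and 46.5 (-2.38). Of 48 replication genes 29 fell and 7 rose (median -0.65). POLA1, the catalytic subunit of DNA polymerase alpha, was at 286 and 283 and then 16.2 and 19.4 (-2.67). In the 22 genes of cohesin and condensin, the rings that hold and fold chromosomes, 18 fell and 3 rose (median -1.43). STAG1 fell from 302 and 299 to 6.67 and 4.89 (-3.14) and PDS5B from 478 and 580.4 to 18.7 and 29.8 (-3.32).

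Genes of cell death changed both ways. PMAIP1, whose product NOXA neutralises the survival protein MCL-1, rose from 2159.6 and 2903 to 6741 and 7192 (1.46). MCL1 rose from 2136 and 2550.3 to 3545 and 3855 (0.66), but its change was 0.07 and not called once sets with a shared suffix were dropped. BCL2, a survival gene of B cells, fell from 354 and 302 to 34.9 and 23.1 (-2.57). BCL2L1 fell from 117 and 134 to 70.4 and 63.2 (-0.67), a call lost with the mean of its probe sets (-0.08). BIK and BID, both promoters of apoptosis, fell from 1441 and 1373 to 346 and 392 (-1.85) and from 673 and 577 to 172 and 161 (-1.72). BAK1, a pore-forming effector, rose from 34.8 and 38.0 to 147 and 119 (1.26). The giant inhibitor BIRC6 fell from 525 and 359.8 to 27.4 and 18.9 (-3.09) and survivin, BIRC5, rose from 769.9 and 959.7 to 2323 and 2201 (1.36). With poly-A scaling PMAIP1, MCL1, BAK1 and BIRC5 were all below 0, so these rises hold on the deposited and quantile scales only. Death receptor genes numbered 0 higher and 4 lower of 9, and 2 lower without control 1. After quantile normalization 2 were higher and 1 lower, and with poly-A scaling 0 and 9.

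Chromatin and nuclear transport genes were mostly lower on each of the 3 scales. Of 28 SWI/SNF and remodeller genes 19 fell and 3 rose (median -1.17; 1 rose without treated array 1), among them the ATPase SMARCA4, from 1520.3 and 1383 to 180.5 and 142 (-2.94), and CHD7, from 990.5 and 863 to 109 and 96.8 (-2.83). Of 37 histone methyltransferases and demethylases 23 fell and 3 rose (median -0.78). KMT2C fell from 841 and 625 to 40.02 and 34.9 (-3.45) and NSD2 from 638 and 791 to 116 and 101 (-2.40). Of 51 nuclear pore and transport genes 40 fell and 7 rose (median -1.61), led by the pore membrane gene NDC1 at 2455 and 2689.7 and then 58.5 and 64.9 (-4.80). In end joining, which rejoins broken DNA, 10 of 11 genes fell and 0 rose (median -1.16), with the kinase PRKDC at 431 and 456 and then 52.2 and 31.97 (-2.70). Homologous recombination and Fanconi genes fell in 14 of 26 and rose in 4 (2 without control 1), while nucleotide excision repair genes rose in 8 of 20 (4 without treated array 1) and fell in 6 as deposited, 0 and 19 with poly-A scaling.

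The hnRNPs, abundant proteins that coat new transcripts, fell in 18 of 23 genes and rose in 0 (median -1.09), and their genes span a median of 15.98 kb. HNRNPD, which targets messages with AU-rich elements, fell from 5223 and 5121 to 512 and 578 (-3.18 ± 0.13), and HNRNPUL1 from 1014 and 873 to 166 and 183 (-2.24). Falls without 1 array numbered 16 to 20. Among SR proteins and CLK kinases, which act in splice site choice, 7 of 26 were higher and 8 lower (26.9% and 30.8%, near the shares of all genes), with 11 and 5 after quantile normalization and 0 and 24 with poly-A scaling. CLK1 rose from 132 and 146 to 789 and 752 (2.23, not called with poly-A scaling) and SRSF3 fell from 7037 and 6518 to 1313 and 1751 (-2.14).

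The protein synthesis apparatus was not uniform. Aminoacyl-tRNA synthetases, which charge tRNAs with amino acids, fell in 20 of 30 genes and rose in 2 (median -0.87; 1 rose without treated array 2). EPRS1 fell from 2389.6 and 2476 to 393 and 393 (-2.54) and AARS1 from 1219 and 1237 to 172 and 205 (-2.52). Ribosome biogenesis and polymerase I genes fell in 28 of 52 and rose in 9 (median -0.45), with the processing factor UTP18 at 1442 and 1423 and then 99.2 and 116 (-3.39). Cytosolic ribosomal protein genes had a median of 0.05 and rose in 19 of 59 with 8 lower as deposited, but with poly-A scaling 0 were higher and 58 lower. The 19 became 12 without control 1, 13 without treated array 1 and 12 without treated array 2. The lower count became 3 without treated array 1 and 5 without treated array 2. RPS9 read 3398 and 7108 on the controls and 9344 and 9311 after treatment (0.92), and its change was 0.39 without control 1 and 1.45 without control 2. RPL27A went the other way, from 2276 and 636 to 216 and 216 (-2.32), and its change was -1.43 without control 1.

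Protein kinase C genes relay receptor signals, among others to NF-kB. All 8 tested protein kinase C genes fell (median -1.38), with PRKCA at 543 and 354 and then 17.3 and 2.42 (-3.52); 7 fell after quantile normalization. TIAM1, an exchange factor for Rac, fell from 742 and 825 to 44.5 and 27.3 (-3.60). In the NF-kB pathway 6 of 20 rose and 8 fell (30% and 40%, near the 25.4% and 38.5% of all genes). The inhibitor NFKBIA rose from 301 and 384 to 1350.5 and 1445 (1.94, and -0.07 with poly-A scaling) and TRAF3, a brake on the alternative pathway, fell from 684 and 717 to 90.4 and 86.4 (-2.60).

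Of 15 tested MHC class II genes, which present peptides to helper T cells, 8 rose and 3 fell as deposited (median 0.44). With poly-A scaling 0 were higher and 14 lower, where 92.3% of all genes were lower. HLA-DRA read 1146 and 2774 on the controls and 6092 and 6297 on the treated arrays (1.78 ± 0.23), with control 1 well below control 2. Its change was 1.15 without control 1. HLA-DRB1 went from 1238 and 1604 to 3837 and 3463 (1.35). RFXAP, a subunit of the factor that binds class II promoters, fell from 937 and 779 to 98.5 and 145 (-2.54) and its partner RFX5 from 834 and 758 to 339 and 340.0 (-1.15). Interferon-stimulated genes rose in 5 of 25 and fell in 11, and 7 fell without control 2 or without treated array 1. The 5 and 11 are 20% and 44% of the list, near the 25.4% higher and 38.5% lower of all genes. IFIT2, which blocks foreign messages, rose from 93.1 and 92.8 to 541 and 629 (2.30, and 0.47 with poly-A scaling), while MX2 fell from 422 and 377 to 27.1 and 25.1 (-2.89).

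Glycolysis and glycogen genes fell in 14 of 27 and rose in 2 (median -0.48). GBE1, the glycogen branching enzyme, fell from 3334 and 3224 to 88.0 and 43.3 (-5.12 ± 0.19), and the phosphofructokinase PFKP from 1783 and 1842 to 176 and 209 (-3.04). Nuclear genes of the respiratory chain rose in 31 of 75 and fell in 20 as deposited (median 0.18). With poly-A scaling 0 and 74 did so, as did 0.573% and 92.3% of all genes. NDUFB11, a subunit of complex I, rose from 1104 and 1191 to 3027 and 3049 (1.38), and NDUFS4, of the same complex, fell from 826 and 730.4 to 186 and 199.97 (-1.85). Autophagy and lysosome genes rose in 17 of 35 and fell in 11 as deposited, and 0 and 33 did so with poly-A scaling. The unfolded protein response list had 11 of 26 higher and 9 lower, and 7 higher without treated array 1. Its factor DDIT3, which promotes death under stress, rose from 17.6 and 38.1 to 127 and 164 (1.58, and 0.25, not called, with poly-A scaling).

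The ZNF genes, most of which encode zinc finger repressors, rose in 133 of 301 and fell in 68 as deposited (median 0.21). After quantile normalization these counts were 174 and 42, and with poly-A scaling 2 and 268. ZNF211 read 42.3 and 41.7 on the controls and 694 and 510.4 on the treated arrays (3.08 ± 0.14, and 1.41 with poly-A scaling). Long noncoding RNAs and snoRNA host genes rose in 45 of 156 and fell in 15 as deposited, and 2 and 145 did so with poly-A scaling. LINC00662 was the largest, from 26.5 and 16.5 to 512 and 435 (3.24). Only 156 of 883 such genes on the array were bright enough to be tested.

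**Figure D3:**
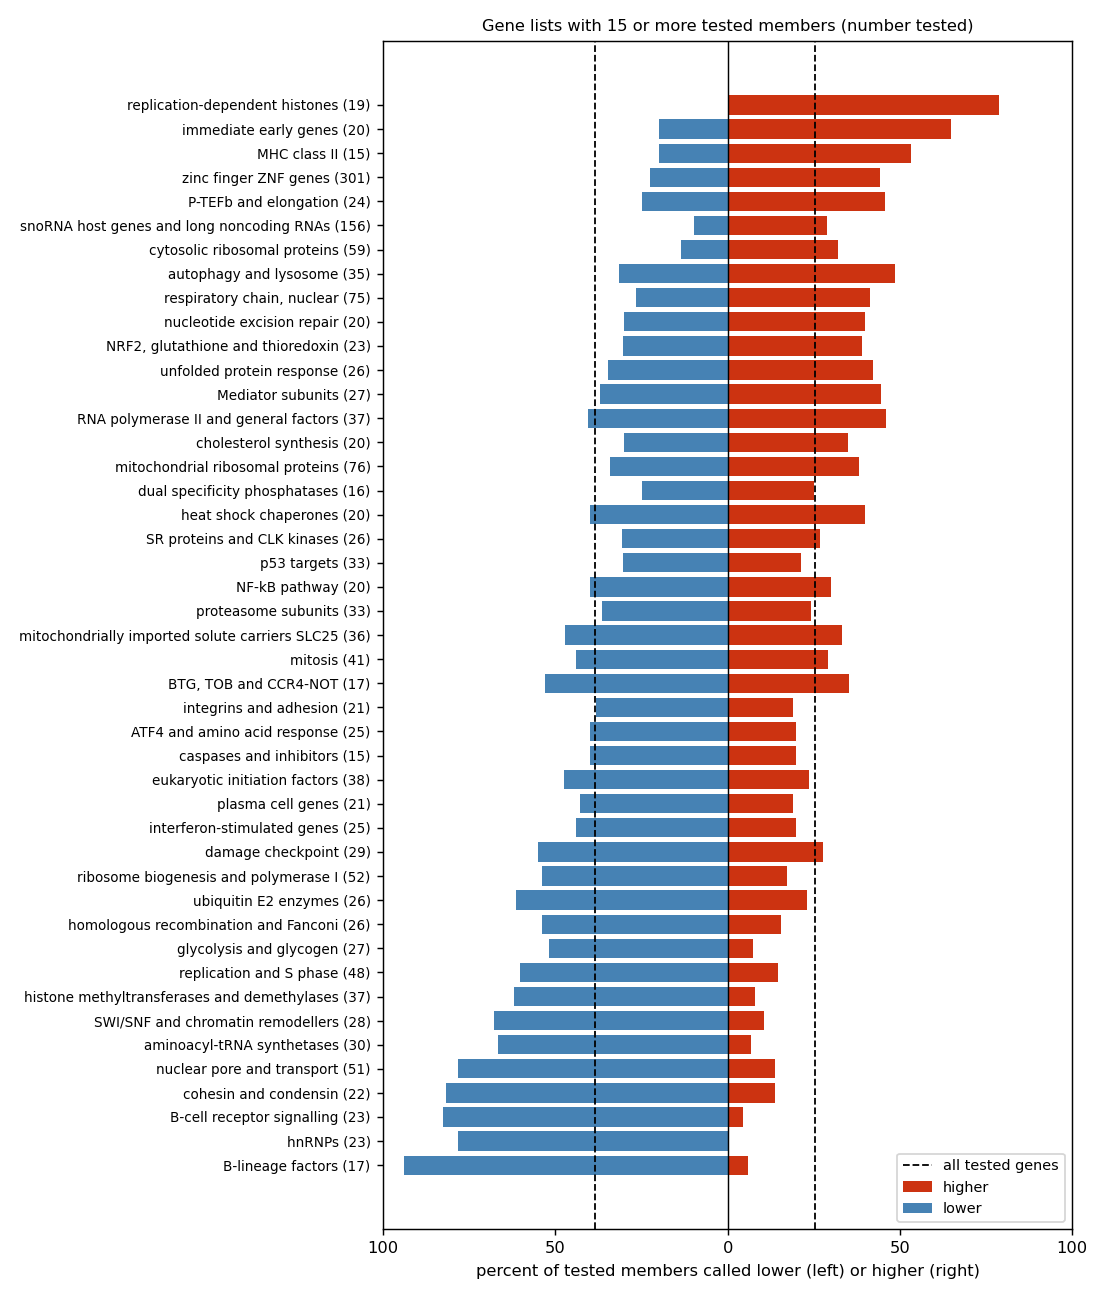
Share of the tested members of each gene list called lower (blue, to the left) or higher (red, to the right) on the deposited scale, for lists with 15 or more tested members (1 such list is not shown), the number tested in brackets. Dashed lines give the shares of all tested genes (38.5% lower and 25.4% higher); histones and immediate early genes lie at the top and B-lineage factors at the bottom, and on the poly-A scale 0.573% of genes were higher.

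Longer genes had lower median changes than shorter ones on each of the 3 scales, as a description with no test. Genes were put in 5 bins of about 2370 by their span from first to last base in the RefSeq table. As deposited, in the shortest bin (median 4.47 kb) 44.1% were higher and 14.6% lower, and the median log2 change was 0.24. In the longest bin (median 145 kb) 7.89% were higher and 65.5% lower, and the median was -1.07. The 3 bins between fell in order, with medians of 0.15, -0.04 and -0.50. The longest bin lay 1.31 below the shortest on the deposited log2 scale, and the difference was -1.37 after quantile normalization and -1.32 with poly-A scaling. On the poly-A scale every bin was mostly lower, with 84.7% of genes lower in the shortest bin and 95.1% in the longest, and medians of -1.22 and -2.53. Several lists that mostly fell hold long genes, against a median span of 28.3 kb for all tested genes. Median spans were 118 kb for protein kinase C, 76.9 kb for histone methyltransferases and demethylases and 73.0 kb for SWI/SNF and remodellers. They were 62.3 kb for cohesin and condensin and 60.8 kb for nuclear pore and transport. The hnRNPs, at 15.98 kb, are shorter. The lists were not compared with other genes of like span. The bin medians in MM1S ran from 0.16 in the shortest bin to -0.60 in the longest.

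**Figure D4:**
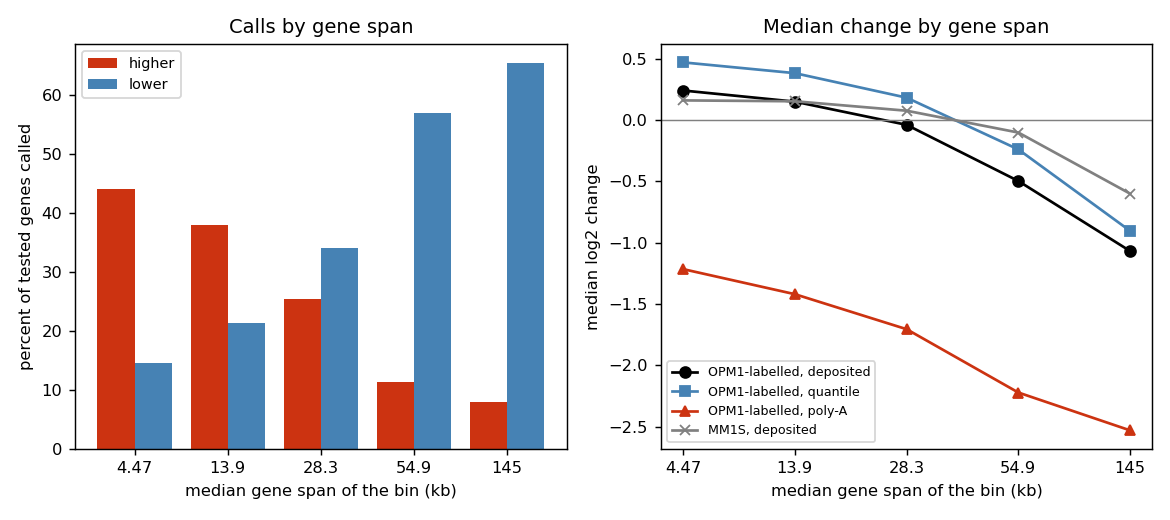
Left, percent of tested genes called higher (red) or lower (blue) in 5 bins of gene span, labelled by the median span in kb. Right, median log2 change per bin in OPM1-labelled cells on 3 scales and in MM1S as deposited; each line falls from the shortest to the longest bin, from 0.24 to -1.07 as deposited.

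Some genes ran against that order. In the shortest bin the deepest falls were those of ID3, MYC, CD24 and KISS1R, the kisspeptin receptor gene, which went from 781 and 770.0 to 40.9 and 35.6 (-3.52) over a span of 3.67 kb. In the longest bin the largest rises were those of RSRP1, FNIP1, CEP89 and SGK1. RSRP1, an arginine and serine rich protein gene of 96.0 kb, rose from 614 and 447 to 4210.3 and 4404 (2.96), and CEP89, a centrosomal gene of 96.0 kb, from 29.2 and 23.7 to 322 and 258 (2.46). Both stayed called with poly-A scaling (0.90 and 0.96).

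Transcripts that went from well expressed to the floor numbered 40, taken as over 500 on both controls and under 40 on both treated arrays. Transcripts that did the reverse numbered 0. This choice uses the same values, so the numbers that follow are a description. The 40 genes span a median of 217 kb, 36 of them lie in the longest bin, and 35 were also called lower in MM1S, where 37.6% of all genes were called and 21.1% were lower. The longest bin as a whole had a median change of -0.60 in MM1S, against 0.02 over all bins. RAPGEF2, an exchange factor for Rap, went from 1603 and 1363 to 36.6 and 28.5. BEST3, a chloride channel gene, went from 818 and 808 to 10.1 and 10.1. UVRAG, an autophagy gene, went from 817 and 716 to 18.4 and 14.9. BACH2 is among them as well.

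The 68 genes called higher on all 3 scales were the opposite kind. They span a median of 5.91 kb, 44 lie in the shortest bin, and 8 are replication-dependent histones. Their control means had a median of 34.6, near the background, and their treated means one of 348. In MM1S 36 of them were also called higher and 1 lower, against 16.4% and 21.1% of all genes. The shortest bin as a whole had a median change of 0.16 in MM1S, against 0.02 over all bins. C12orf57 was the largest after JUN and ATF3, from 136 and 182 to 2116 and 2207 (3.53). RHBDD2, a rhomboid-like membrane protein gene, rose from 134 and 149.9 to 1424 and 1522 (3.12), and TSPYL2, a nucleosome assembly protein gene, from 196 and 178 to 1875 and 1820.0 (3.10).

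Probe sets of 1 gene did not always move together. In a fit over 24654 probe sets 57.9% were called, 22% higher and 35.9% lower. Of 6355 genes with 2 or more tested probe sets, 627 had all of them called higher, 1251 all called lower, and 688 (10.8%) had sets called both ways. In 87 genes both directions exceeded 2-fold. PSMB4, a proteasome subunit, had 1 set that rose from 228.8 and 315 to 3651 and 4163 (3.71), a second that rose by 2.21 and another that fell from 9537 and 4698 to 684 and 570.4 (-3.36). For the RNA-binding protein QKI 1 set rose from 121.7 and 121.9 to 625 and 702 (2.18) and 5 others fell, the deepest at -3.69. For the Mediator kinase CDK19 1 set rose from 58.8 and 66.6 to 376 and 403 (2.16) and 2 fell. FNIP1, a folliculin partner, had 1 set that rose by 2.57 and 2 that fell, so its place among the long genes that rose depends on the set chosen. Which parts of the transcripts these sets read was not examined here.

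**Figure D5:**
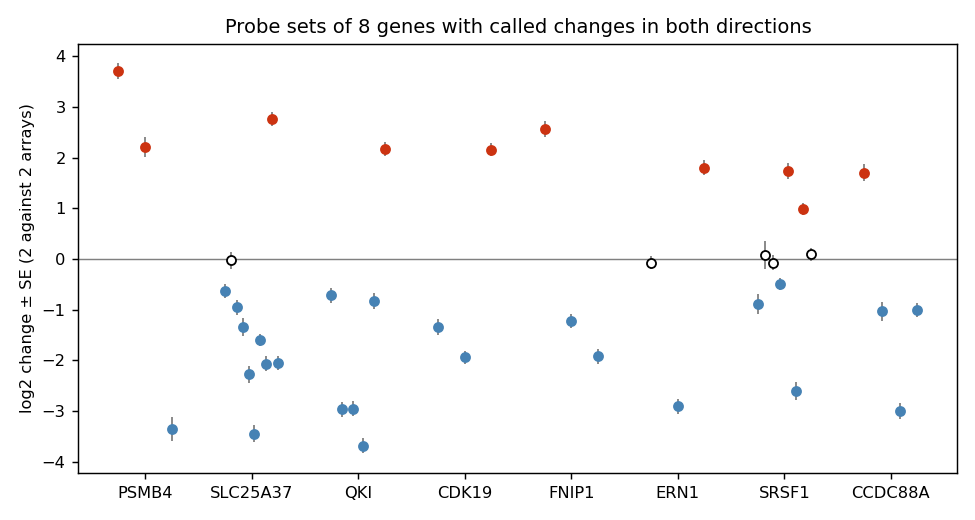
Log2 change with its standard error (vertical axis) of each tested probe set of the 8 genes whose sets moved furthest in opposite directions. Red points were called higher, blue ones lower and white ones not called; PSMB4 runs from 3.71 to -3.36 and SLC25A37 from 2.76 to -3.45.

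Set against MM1S, the response differed in 5524 genes (46.6%) by the test of the difference, 1821 higher (15.3%) and 3703 lower (31.2%) in OPM1-labelled cells, on the deposited scale. PAX5 read 9.54 and 4.23 on the MM1S controls. ID3 fell by 4.77 in OPM1-labelled cells and was not called in MM1S, at 0.23, and the difference was -5.00 ± 0.22 (adjusted p = 5.5e-13). The rises of HEXIM1 and SERTAD1 were close in size in both lines, with differences of 0.06 ± 0.21 and -0.04 ± 0.20 (adjusted p = 0.82 and 0.89). JUN and ATF3 rose more in OPM1-labelled cells, by 2.61 ± 0.22 and 2.65 ± 0.23. Of the replication-dependent histones 14 of 19 responded higher in OPM1-labelled cells and 0 lower. Genes called in opposite directions in the lines numbered 271 of 11865 tested.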

How the data were processed

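Transcripts were measured on Affymetrix HG-U133 Plus 2.0 arrays, with 4 arrays of OPM1-labelled cells among the 8 of the series. The deposited values are linear intensities made by the authors with dChip, per the series' design text; its version and normalization were not given in the sources used here. Values were read as log2(intensity + 32). Probe sets were named from the platform annotation, with symbols updated through RefSeq, and 41091 of 54675 had 1 symbol. Each gene took its probe set with the highest mean over all 8 arrays, and the dimmest 40% were left out, which left 11865 genes. One limma (3.58.1, R 4.3.3) model with trend was fitted over all 8 arrays with a mean per group, p-values were adjusted by Benjamini-Hochberg over all genes, and an adjusted p under 0.05 was a call. The fit was tested on simulated arrays in which few genes changed and no shift in scale was added. That test therefore does not bear on the choice of scaling. Errors beside log2 changes are standard errors of the fit, and 2 arrays per group limit the precision.

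Poly-A scaling divided each array by its poly-A controls within each line, and quantile normalization ran over all 8 arrays. Gene spans and promoters came from RefSeq tables. Named genes were a fixed set, the largest called rises and falls among all genes, within each gene list, in extreme groups of span and level and on all 3 scales, and genes with opposed probe sets; cell type markers were also given. The members and lists were chosen with earlier results of these data known. Alternatives were other scalings, offsets, filters, ways to choose probe sets, a replicate block and leaving out each array. Several gene lists with fewer than 15 tested members are reported in part or not at all, and 1 larger list is not reported here.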

Additional observations from a re-analysis of the deposited data

Results flagged for a closer look

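The response differed between the lines in 5524 genes by the test of the difference, on the deposited scale. Among the 118 genes named in the text, 4 were called in opposite directions in OPM1-labelled and MM1S cells, against 271 of all 11865 tested. CDKN1A, a cell cycle inhibitor, differed by -3.71 on the log2 scale, and MDM2, the ligase that degrades p53, by -3.26. BIK, a promoter of apoptosis, differed by -2.33, and EGR1, a growth-factor response gene, by -1.39. Each of these 4 fell in OPM1-labelled cells and rose in MM1S.

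Signals outside the gene comparison also moved. Of 4985 tested probe sets with no symbol, 1318 were called higher in OPM1-labelled cells. The poly-A controls were 4.33-fold higher on the treated arrays than on the controls, and the part of this in the results was not tested.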

How the results depend on the processing

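Calls in OPM1-labelled cells depended most on the scaling. Poly-A scaling gave 68 higher and 10957 lower genes, and 22701 called probe sets, 149 higher and 22552 lower. The difference from MM1S then held 10509 genes, 142 higher and 10367 lower. On the MM1S arrays the poly-A controls had geometric means of 19.7 to 25.7, near the median signals of 23.8 to 24.8 there. The MM1S side of this difference was therefore scaled by controls near the background. In OPM1-labelled cells 60 of 61 gene lists had more members lower than higher with poly-A scaling, against 38. With quantile normalization 4598 genes and 8188 probe sets were called higher, 2958 genes were higher in the difference, and the longest span bin lay at -1.37 against the shortest. Scaling by the hybridisation controls left 2430 genes lower in the difference. A 2-fold change in mean signal, with no test, was passed by 4490 genes, 1327 of them higher, and by 9366 probe sets, 2812 of them higher. Leaving out 1 array gave 6773 to 7324 called genes, 2532 to 2946 higher and 4241 to 4413 lower, 12653 to 13775 called probe sets, 4477 to 5420 higher and 8058 to 8654 lower, and 4826 to 5506 genes in the difference, 1478 to 1920 higher and 3348 to 3600 lower. It gave 38 to 41 lists with more members lower, and -1.34 to -1.30 for the span bins. The replicate block gave 8101 called genes. With it 1 gene named in the text that had not been called became called, and the others kept their calls. The labels do not state that numbers pair the arrays, and same-numbered arrays deviated together with r = 0.21 in each line, over 2 pairs.

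Signs turned with poly-A scaling for genes that were above 0 as deposited: BAK1 (-0.18), BIRC5 (-0.70), BRD2 (-0.41), CD79A (-1.92), CDKN1B (-0.015), COL1A1 (-1.06), HLA-DRA (-0.31), HLA-DRB1 (-0.73), IRF4 (-1.85), JCHAIN (-1.45), MCL1 (-1.43), NDUFB11 (-0.70), NFKBIA (-0.072), PMAIP1 (-0.63), POLR2A (-0.45), POLR2L (-0.37), PTTG1 (-0.60), RPS9 (-1.18), SPIB (-1.0), SSR4 (-0.19), TOB2 (-0.26), TXNIP (-0.67) and UBE2C (-0.034). With the mean of probe sets CDK19 was at -0.33, FNIP1 at -0.16 and SPIB at -0.98. FNIP1 was at -1.92 without shared-suffix sets, and SLC25A37 at 2.76 with the set highest in OPM1-labelled cells. The cause was not tested.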

Other observations

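Probe sets without a gene symbol did not share the excess of falls. Of the 4985 tested, 26.4% were called higher and 22.6% lower on the deposited scale, with a median log2 change of 0.07. Of 24654 probe sets with 1 symbol in the same fit, 21.8% were higher and 35.8% lower, with a median of -0.06. The difference between these classes was not tested.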
